A study of Capra hircus with 6 samples.

Results

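The genes described here encode acyl-CoA synthetases, the enzymes that activate fatty acids, and were taken by gene name. Of 9 names looked for (ACSL1, ACSL3, ACSL4, ACSL5, ACSL6, ACSBG1, ACSS1, ACSS2 and ACSS3), 8 had a row among the 27271 genes of the deposited tables. ACSL6, a long-chain enzyme best known from brain, had no row of that name and was not analysed here. The libraries came from goat intramuscular preadipocytes, primary fat precursor cells of longissimus dorsi muscle from newborn Jianzhou goats. The cells received a negative control siRNA (NC, labelled WT, n = 3) or an siRNA against the endothelial lipase gene LIPG (Si-LIPG, labelled LIPG Knock down, n = 3), and both groups were then induced to adipose differentiation in medium with oleic acid. A transient siRNA lowers a transcript without removing the gene, and since no label says that the libraries came from separate animals, the p values below measure only the spread between these libraries, which may be technical.

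Acyl-CoA synthetases join a free fatty acid to coenzyme A at the cost of ATP, passing through an acyl-AMP intermediate. The acyl-CoA is held inside the cell and can then enter triglyceride, phospholipid, elongation or β-oxidation, so these enzymes stand at the entry of fatty acids into the metabolism of a fat cell. The long-chain enzymes (ACSL) take the common long fatty acids in different membranes of the cell, the bubblegum enzyme ACSBG1 takes long and very long chains, and the short-chain enzymes (ACSS) take acetate and propionate.

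The libraries held between 36451898 and 52638817 reads, of which only 0.997% to 2.88% (524776 to 1051230 reads) were counted on genes, and every Si-LIPG library had a larger share on genes than every NC library. The silenced gene LIPG was counted 0, 2 and 0 times in the NC group against 0, 2 and 2 times in the Si-LIPG group, below the 3 counts that a count of 0 allows, so that its silencing was not detectable at this depth. The protocol of the libraries keeps the strand of the RNA, while the strand setting of the counting is not given in the sources used here. ND6, the mitochondrial protein gene read from the other strand than its 12 counterparts, had between 22.6 and 99.3 times their median counts per kb. Between 91.6% and 93.7% of reads were counted on no gene feature. Whether the counts are mainly of the strand opposite to each gene was not tested. Reads of a gene's own strand and of the opposite strand could therefore not be told apart for the genes below. A value is given as reads counted on the row of that gene and may not be the level of its transcript. Values are TMM-normalised CPM (counts scaled to a common library size by a method that assumes most genes unchanged) unless they are named as FPKM, which divides by gene length, or as CPM over all reads in the file. Over all tested genes the log2 fold change of Si-LIPG against NC had a median of 0.16 with TMM, 0.74 with library sizes alone and 1.58 over all reads, so directions are given under both ends of this range.

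By the criterion of the study (p below 0.05 before adjustment, with more than a 1.5-fold difference), ACSL4 and ACSL5 were higher and ACSBG1 was lower in the Si-LIPG libraries (edgeR's quasi-likelihood test over all genes). After Benjamini-Hochberg adjustment over all tested genes only the fall of ACSBG1 had an adjusted p under 0.05 (0.0485). ACSL1 and ACSL3 had fold changes above 0 and ACSS2 one below 0, without passing either threshold. ACSS1 and ACSS3 had too few counts to be tested, and ACSS3 was counted only in the Si-LIPG libraries. The criterion was met by 3 of the 6 tested members (2 higher, 1 lower) against 20.7% of all 6574 tested genes (7.83% higher, 12.9% lower), and an adjusted p under 0.05 was reached by 1 of 6 (lower) against 6.51% (0.974% higher, 5.54% lower). These counts include ACSL5, which passed the filter on low counts in 1 NC and 3 Si-LIPG libraries. It was thus tested because of the group in which it was higher. With 6 members these counts are a description and do not set the family apart from other genes.

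**Figure D1:**
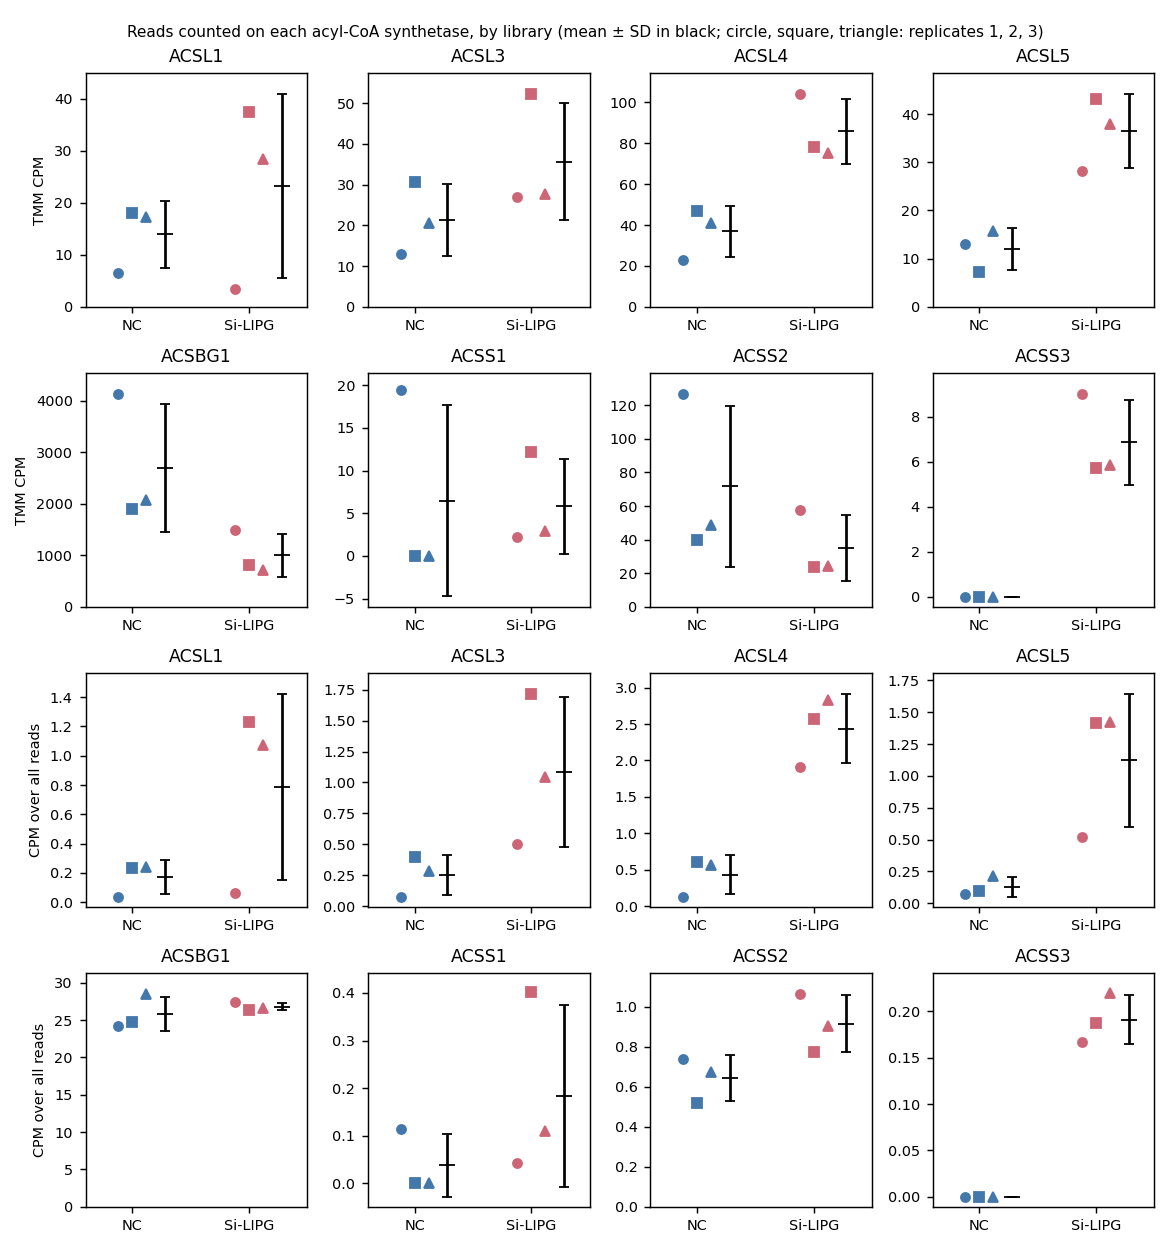
Reads counted on each of the 8 acyl-CoA synthetases in the 3 NC and 3 Si-LIPG libraries, as TMM CPM (upper 8 panels) and as CPM over all reads in the file (lower 8 panels), with 1 symbol per library and the mean ± SD in black. ACSL4, ACSL5 and ACSS3 lie higher in every Si-LIPG library on both scales, while ACSBG1 lies lower as TMM CPM (2697 against 999 on average) and overlaps between the groups over all reads (25.8 against 26.8).

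ACSL4 (ENSCHIG00000000100), which prefers arachidonic acid and other polyunsaturated fatty acids, was the most often counted long-chain enzyme. It had 7, 26 and 26 counts in NC libraries 1, 2 and 3 and 92, 96 and 103 counts in Si-LIPG libraries 1, 2 and 3. Scaled to TMM CPM these were 22.7, 46.8 and 41.0 against 104, 78.2 and 75.2. Every Si-LIPG library lay above every NC library, and the lowest NC value was that of NC 1, the library with the fewest reads on genes. The group means were 36.8 ± 12.6 (SD, n = 3) and 85.8 ± 15.7 (SD, n = 3), and the log2 fold change was 1.18 ± 0.40 (SE), with an adjusted p of 0.0942 in edgeR's test. ACSL4 thus met the criterion of the study but not the adjusted threshold.

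ACSL5 (ENSCHIG00000019745), an enzyme of the endoplasmic reticulum and mitochondrial outer membrane that is abundant in intestine, had the largest fold change of the tested members. It was counted 4, 4 and 10 times in the NC group against 25, 53 and 52 times in the Si-LIPG group. The exact 95% Poisson interval of the count of 4 runs from 1.09 to 10.2 and that of the count of 25 from 16.2 to 36.9, so the counting error of the NC values was large. In TMM CPM the NC libraries had 13.0, 7.20 and 15.8 and the Si-LIPG libraries 28.2, 43.2 and 38.0, again without overlap. The log2 fold change was 1.60 ± 0.60 (SE), with an adjusted p of 0.127 in edgeR's test. Before TMM scaling, only 1 NC library reached the 12.8 CPM that the filter on low counts asks for, against all 3 Si-LIPG libraries, so ACSL5 was tested because of the group in which it was higher.

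ACSL3 (ENSCHIG00000021561), which sits on the endoplasmic reticulum and on growing lipid droplets, was counted 4, 17 and 13 times in the NC group against 24, 64 and 38 times in the Si-LIPG group. The groups overlapped in TMM CPM, where NC 2 (30.6) lay above Si-LIPG 1 (27.1) and Si-LIPG 3 (27.8). The log2 fold change of 0.70 ± 0.56 (SE), with an adjusted p of 0.532 in edgeR's test, did not exceed the spread between libraries. Over all reads it was 2.10 (adjusted p = 0.0730, edgeR), which met the criterion, and the groups did not overlap.

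ACSL1 (ENSCHIG00000022508), the main long-chain enzyme of mature adipocytes, had 2, 10 and 11 counts in the NC group against 3, 46 and 39 counts in the Si-LIPG group. The Si-LIPG group was split, since Si-LIPG 1 had the lowest TMM CPM of all 6 libraries (3.38) and Si-LIPG 2 and 3 the highest (37.5 and 28.5). The log2 fold change was 0.68 ± 0.80 (SE), with an adjusted p of 0.697 in edgeR's test. It ranged from 0.14 without Si-LIPG replicate 2 to 1.11 without Si-LIPG replicate 1. Over all reads the log2 fold change was 2.20 (adjusted p = 0.126, edgeR). A change of ACSL1 was not detectable with this spread.

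ACSBG1 (ENSCHIG00000011482), an acyl-CoA synthetase known mainly from brain and other nervous and steroid-forming tissue, took most of the reads of the family. It had 1272, 1055 and 1311 counts in the NC group against 1315, 987 and 972 counts in the Si-LIPG group. The raw counts of the groups overlapped, and the difference arose with the scaling to reads on genes. In TMM CPM the NC libraries had 4124, 1900 and 2066 and the Si-LIPG libraries 1484, 804 and 710.0, with every Si-LIPG library below every NC library. The group mean dropped from 2697 ± 1239 (SD, n = 3) to 999 ± 422 (SD, n = 3), and the log2 fold change was -1.43 ± 0.41 (SE), with an adjusted p of 0.0485 in edgeR's test. As CPM over all reads the NC libraries had 24.2, 24.8 and 28.4 and the Si-LIPG libraries 27.4, 26.4 and 26.7, and the log2 fold change was 0.0561 (adjusted p = 0.835, edgeR). The fall of ACSBG1 was therefore a fall relative to the other reads counted on genes, and its direction did not hold when all reads were the base.

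ACSS2 (ENSCHIG00000023954), the cytosolic and nuclear enzyme that makes acetyl-CoA from acetate, had 39, 22 and 31 counts in the NC group against 51, 29 and 33 in the Si-LIPG group. NC 1 was far above the other libraries in TMM CPM (126, against 39.6 and 48.9 in NC 2 and 3 and 57.5, 23.6 and 24.1 in the Si-LIPG libraries), and the groups overlapped through Si-LIPG 1. The log2 fold change was -0.998 ± 0.53 (SE), with an adjusted p of 0.308 in edgeR's test. It was 0.51 over all reads, so its direction turned with the scaling. When libraries were left out it was -0.37 without NC replicate 1, while ACSS2 met the criterion in the fits that lacked NC 2 (-1.28) or Si-LIPG 1 (-1.56).

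ACSS1 (ENSCHIG00000021744), the mitochondrial enzyme that uses acetate, was counted 6, 0 and 0 times in the NC group against 2, 15 and 4 times in the Si-LIPG group. Its values of both groups overlapped, with the highest TMM CPM in NC 1 (19.5) and the next in Si-LIPG 2 (12.2). ACSS3 (ENSCHIG00000023281), a mitochondrial enzyme with a preference for propionate, was counted 0 times in every NC library and 8, 7 and 8 times in replicates 1, 2 and 3 of Si-LIPG. A count of 0 allows up to 3 counts. With 3 counts set for the whole NC group, the Si-LIPG level was 3.30-fold higher in TMM CPM and 8.89-fold higher over all reads. These ratios leave out the counting error of the Si-LIPG group and the spread between libraries, so they are not lower bounds. The two-sided exact permutation test of ACSS3 gave p = 0.1, which no design of 3 against 3 can go below. Without the filter on low counts edgeR gave an adjusted p of 0.255 for ACSS3.

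**Figure D2:**
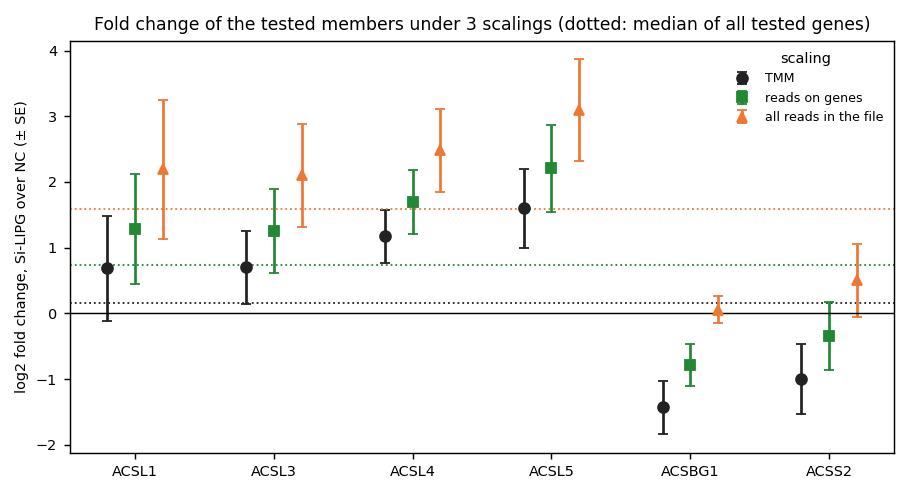
Log2 fold change (Si-LIPG over NC) with its standard error for the 6 tested members under 3 scalings of the libraries: TMM, reads on genes and all reads in the file. Dotted lines mark the median of all tested genes under the same scaling, and the 4 ACSL genes lie above it and ACSBG1 and ACSS2 below it under each of the 3.

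Of the tested members, 4 of 6 had a log2 fold change above 0 with TMM, as did 58.4% of all tested genes, and 6 of 6 did over all reads, where 92.3% of all tested genes did. Relative to the median of all tested genes, the ACSL genes lay higher by 0.52 for ACSL1, 0.54 for ACSL3, 1.01 for ACSL4 and 1.44 for ACSL5 on the log2 scale with TMM, and ACSBG1 and ACSS2 lay at -1.59 and -1.16. Groups without overlap were seen for 3 of the 6 tested members (ACSL4, ACSL5 and ACSBG1), against 28.7% of all tested genes. ACSL5 was tested because of the group in which it was higher, which limits its place in this count and its distance from the median. Over all reads, the mean of ACSL4 was 0.436 ± 0.263 (SD, n = 3) CPM in the NC group and 2.44 ± 0.469 (SD, n = 3) in the Si-LIPG group, a ratio of 5.59, and that of ACSL5 was 0.129 ± 0.0768 (SD, n = 3) and 1.12 ± 0.521 (SD, n = 3), a ratio of 8.70. The share of reads on genes moved with the groups, and with that share as a covariate 0 of the 6 members met the criterion and 134 of all tested genes did. In that fit the log2 fold change was 1.36 ± 0.66 (SE) for ACSL4, 1.11 ± 1.09 (SE) for ACSL5 and -0.0554 ± 0.45 (SE) for ACSBG1. The adjusted p of each was 0.9999 in edgeR's test. Share and group could not be told apart for these genes.

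**Figure D3:**
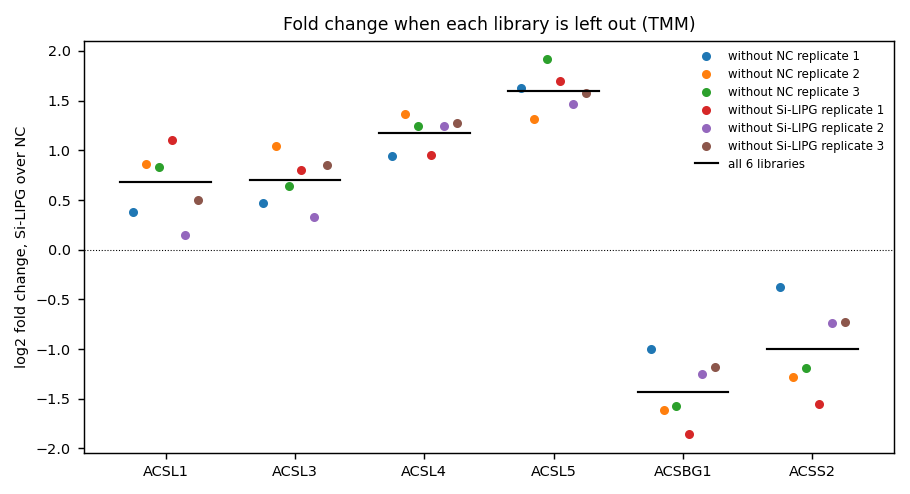
Log2 fold change (Si-LIPG over NC, TMM) of the 6 tested members when each of the 6 libraries was left out, with a black bar for the fit of all 6. No member changed sign, and ACSBG1 ranged from -1.86 to -1.004.

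The direction of each tested member held in all 6 fits that left out a library. The log2 fold change ranged from 0.94 to 1.37 for ACSL4 and from 1.32 to 1.91 for ACSL5. ACSL4 no longer met the criterion without Si-LIPG replicate 1 (log2 fold change 0.96), and ACSL5 no longer met it without NC replicate 2 (1.32), Si-LIPG replicate 2 (1.46) or Si-LIPG replicate 3 (1.58). ACSBG1 met the criterion of the study in each of these fits. Its adjusted p was 0.00953 without Si-LIPG replicate 1 and between 0.0530 and 0.295 in the other 5 fits, so its adjusted call was lost without any 1 of NC 1, NC 2, NC 3, Si-LIPG 2 and Si-LIPG 3. DESeq2 on all 6 libraries gave ACSBG1 an adjusted p of 0.00400.

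The division of reads within the family does not depend on how libraries are scaled. It can still move with the percentage of reads on genes, which was 0.997% to 1.53% in NC and 1.80% to 2.88% in Si-LIPG libraries. The part of that percentage in the division was not tested. ACSBG1 took 95.4%, 93.0% and 93.5% of the summed counts of the 8 members in the NC libraries (exact 95% binomial intervals together from 91.4% to 96.4%) and 86.5%, 76.1% and 77.8% in the Si-LIPG libraries (intervals from 73.7% to 88.2%). Its share was lower in every Si-LIPG library, with a difference of -13.8 percentage points between the group means (two-sided exact permutation test, p = 0.1, adjusted p = 0.16 over 8 members). ACSL4 had 1.56% ± 0.921 (SD, n = 3) of the family's counts in the NC group and 7.23% ± 1.11 (SD, n = 3) in the Si-LIPG group, and ACSL5 had 0.455% ± 0.225 (SD, n = 3) and 3.30% ± 1.43 (SD, n = 3). The shares of ACSL3, ACSL4, ACSL5 and ACSS3 were higher in every Si-LIPG library than in every NC library, each with the same exact permutation p of 0.1, the smallest possible. Shares of the same sum are tied, so the lower share of ACSBG1 raises the others together and these are not separate results. With FPKM in place of counts the share of ACSL3 overlapped (1.48% in NC 2 and 1.46% in Si-LIPG 1). The share of ACSS2 overlapped between the groups, with 2.36% ± 0.508 (SD, n = 3) and 2.74% ± 0.567 (SD, n = 3).

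**Figure D4:**
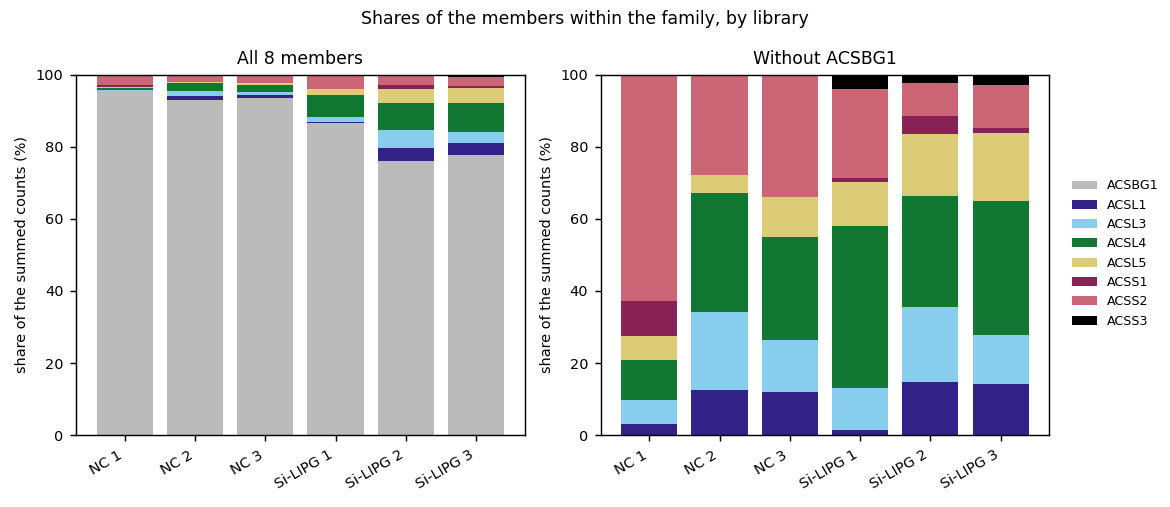
Shares of the members in the summed counts of the family, by library, for all 8 members (left) and after leaving ACSBG1 out of the sum (right). ACSBG1 falls from at least 93.0% in the NC libraries to at most 86.5% in the Si-LIPG libraries, and without it ACSS2 has the largest share in NC 1 and NC 3 and ACSL4 in the others.

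When ACSBG1 was left out of the sum, a base chosen after the data were seen, the remaining counts were 62, 79 and 91 in the NC group against 205, 310 and 277 in the Si-LIPG group. ACSS2 then had 62.9%, 27.8% and 34.1% of them in the NC group against 24.9%, 9.35% and 11.9% in the Si-LIPG group, which did not overlap. ACSL5 had 6.45%, 5.06% and 10.99% in the NC group against 12.2%, 17.1% and 18.8% in the Si-LIPG group, also without overlap, and ACSL4 overlapped (NC up to 32.9%, Si-LIPG 31.0% to 44.9%). Within the 4 ACSL genes alone the shares overlapped for each gene. ACSL4 had 43.4% ± 2.22 (SD, n = 3) of the ACSL counts in the NC group and 48.5% ± 13.9 (SD, n = 3) in the Si-LIPG group (two-sided exact permutation test, p = 0.8). A change in the balance among the ACSL genes was not detectable.

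Reads of a gene's own and opposite strand could not be told apart, so the levels compared here are of counted reads and may not be those of the transcripts. Compared per length, ACSBG1 had the highest such level of the family in both groups. Its FPKM was 290 ± 51.8 (SD, n = 3) in the NC group, rank 241 among all genes, and 166 ± 46.6 (SD, n = 3) in the Si-LIPG group, rank 471. ACSS2 followed in the NC group with 24.1 ± 9.32 FPKM (SD, n = 3), and neither range overlapped with that of the next gene. Below it, ACSL4 (5.65), ACSL5 (3.84), ACSL3 (2.73), ACSL1 (2.17) and ACSS1 (1.82) had mean FPKM in the NC group whose ranges overlapped from each to the next. In the Si-LIPG group ACSS2 (18.6 ± 7.69 FPKM, SD, n = 3), ACSL4 (18.2 ± 0.892 FPKM, SD, n = 3) and ACSL5 (17.8 ± 5.40 FPKM, SD, n = 3) had overlapping levels. Their ranges lay above that of ACSL3 (6.48 ± 2.96 FPKM, SD, n = 3), which overlapped with ACSL1 (5.26 ± 4.11 FPKM, SD, n = 3). ACSS2 thus stood above ACSL4 in 3 of 3 NC libraries and in 1 of 3 Si-LIPG libraries.

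The members differ in their surroundings in the genome. RefSeq's annotation of assembly ARS1.2 was used here, which names the neighbours but may not be the build of the files. There IDH3A, a subunit of the isocitrate dehydrogenase of the citric acid cycle, overlaps ACSBG1. GSS, the glutathione synthetase gene, lies within 1 kb of ACSS2, PPFIA2 lies within 1 kb of ACSS3, and a pseudogene (LOC102187292) overlaps ACSL5. ACSL1, ACSL3, ACSL4 and ACSS1 had no gene within 1 kb, so 4 of the 8 members had one, against 51.3% of the 5196 tested genes found in that annotation. IDH3A itself was counted 8, 7 and 16 times in the NC group against 8, 70 and 72 times in the Si-LIPG group (log2 fold change 0.93 ± 0.65, SE, edgeR adjusted p = 0.475). In every library these were far fewer than the counts of ACSBG1. With the strand setting of the counting not given, they need not measure the IDH3A transcripts present. GSS had 0, 13 and 8 counts and 14, 40 and 21 counts (log2 fold change 0.72, adjusted p = 0.694, edgeR). The reads of ACSBG1 and IDH3A in their shared stretch could not be told apart, and their part in the values of ACSBG1 was not tested.

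The genes whose profile over the 6 libraries was closest to a member were named by the root mean square difference of log2 CPM, centred on the mean of each gene, among 3671 or 3672 named genes counted on average 20 times or more. Among the genes closest to ACSBG1 were STUB1 (difference 0.0379) and PMCH (0.0546), where the median over genes was 1.06. For ACSL5 they were XRCC6 (0.0805), GNPTAB (0.117) and FANCD2 (0.145), and for ACSL4 they were FBXO42 (0.164), TXNRD1 (0.172) and VCAN (0.181). ACSL3 lay nearest to DLST (0.122), PRRC2B (0.154) and TMEM63B (0.165), and ACSL1 to TULP3 (0.203), SH3GLB1 (0.320) and PSMA1 (0.328). ACSS2 lay nearest to ABHD16B (0.107), TBCCD1 (0.135) and MBD4 (0.160). Among the members themselves ACSBG1 and ACSS2 had the most similar profiles (0.305), and the next pair was ACSL3 and ACSL4 (0.468). All these distances share the depth of the same 6 libraries.

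Most other acyl-CoA synthetases were sparsely counted, with the exception of ACSM3 (138 to 229 counts per library). Of 16 genes listed (the SLC27A transporters with synthetase activity, the medium-chain ACSM enzymes, ACSF2, ACSF3, ACSBG2 and AACS), 14 had a row, 6 of these had no count in any library (SLC27A2, SLC27A6, ACSM1, ACSM4, ACSM5 and ACSBG2), and 3 were tested. ACSM3, a mitochondrial medium-chain enzyme, met the criterion with a lower level in the Si-LIPG group (log2 fold change -1.26, adjusted p = 0.0897, edgeR), which was 0.31 over all reads. ACSF2 (0.11) and AACS (-0.0810), which activates acetoacetate, had these log2 fold changes with TMM, did not meet it, and had 1.53 and 1.62 over all reads. Of the acyl-CoA thioesterases, which undo the reaction by splitting acyl-CoA, 4 of 12 were tested and 2 met the criterion, both lower, where 12.9% of all tested genes were lower at the criterion. The peroxisomal ACOT8 fell, from 109 ± 26.6 (SD, n = 3) to 38.7 ± 18.3 (SD, n = 3) in TMM CPM (log2 fold change -1.50, adjusted p = 0.0452, edgeR), and ACOT12, which splits acetyl-CoA, had a log2 fold change of -1.54 (adjusted p = 0.0513, edgeR). Over all reads these became -0.12 and 0.0896.

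Among the users of acyl-CoA, shares at the criterion are to be read against the 20.7% of all tested genes. In the carnitine shuttle, which carries acyl groups into mitochondria, 4 of 7 genes were tested and SLC25A20, the carnitine carrier of the inner membrane, was the 1 at the criterion. It had 0, 1 and 2 counts in the NC group against 20, 22 and 16 counts in the Si-LIPG group (adjusted p = 0.0956, edgeR). Like ACSL5 it was tested because of the group in which it was higher, since 0 NC libraries and 3 Si-LIPG libraries passed the filter, and its NC counts lay within the floor of 3 counts, so no fold change is given. CPT1A, the outer membrane enzyme of the shuttle, had a log2 fold change of 0.20 (adjusted p = 0.806, edgeR). Of 20 glycerolipid acyltransferases, 7 were tested and GPAT2, a mitochondrial glycerol-3-phosphate acyltransferase best known from testis, was the only one at the criterion, with a fall from 720 ± 301 (SD, n = 3) to 218 ± 110 (SD, n = 3) in TMM CPM (log2 fold change -1.72, adjusted p = 0.0395, edgeR) and a log2 fold change of -0.28 over all reads. Among the 5 acyl-CoA binding proteins with a row, 3 were tested, and 0 of these had an unadjusted p under 0.05 in edgeR and 0 in DESeq2.

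Acetyl-CoA is the product of ACSS2 and, by another route, of ATP citrate lyase (ACLY). Of 13 genes for the supply and use of acetyl-CoA, 6 were tested and 1 met the criterion. ACLY had 21, 53 and 51 counts in the NC group against 167, 192 and 184 in the Si-LIPG group, without overlap in TMM CPM (81.3 ± 13.7 against 160 ± 27.2, SD, n = 3 each). Its log2 fold change was 0.96 with TMM (adjusted p = 0.0942, edgeR) and 2.31 over all reads, opposite in direction to ACSS2 with TMM. Of 10 genes for uptake, binding and release of fatty acids, 3 were tested and 2 met the criterion, both lower, against the same 12.9% of all tested genes. PNPLA2, the adipose triglyceride lipase that releases fatty acids from droplets, had a log2 fold change of -1.28 with TMM (adjusted p = 0.0400, edgeR) and 0.13 over all reads, and that of FABP3 was -2.02 (adjusted p = 0.0513, edgeR) and -0.55. Of 10 transcription factors and partners known to act on this family, PPARD, SREBF2 (log2 fold change 0.76) and SCAP (0.27) were tested. Of these 3, 0 had an unadjusted p under 0.05 in edgeR and 0 in DESeq2. PPARD passed the filter on low counts in 0 NC and 3 Si-LIPG libraries. It was thus tested because of the group in which it was higher, and no fold change is given. Beside the median of 0.16 over all tested genes, the tested genes had a median log2 fold change of -0.0810 for the other acyl-CoA synthetases, -1.24 for the thioesterases, 0.59 for the acyl-CoA binding proteins, 0.20 for the carnitine shuttle and 0.70 for the acyltransferases. It was 0.61 for acetyl-CoA supply and use, -1.28 for uptake, binding and release and 0.76 for the transcription factors, against 0.69 for the 6 tested members. Some genes behind these medians passed the filter mainly through the Si-LIPG group. DBI, SLC25A20, AGPAT3 and PPARD passed it in 0 NC and 3 Si-LIPG libraries. LPCAT3, whose value is the acyltransferase median, did so in 1 and 3, as did the acyltransferases AGPAT1 and LCLAT1 and the member ACSL5. ACOT7 (2 NC and 1 Si-LIPG) and FABP3 (3 and 2) went the other way. The medians are therefore a description and were not tested.

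As a sum, many reads were counted on markers of the labelled cell type. Of 13 preadipocyte and fibroblast markers, 11 had a row and 10 were tested, and DLK1 had no count. Their summed TMM CPM was 22246 to 30189 in the NC group against 31367 to 37702 in the Si-LIPG group. Of these, LUM rose (log2 fold change 1.71, adjusted p = 0.0395, edgeR), DCN was higher at the criterion (0.87) and ENG was lower (-1.07). Over all reads these became 3.14, 2.24 and 0.44, so the direction of ENG turned with the scaling. Most of the summed level came from COL1A1 and COL1A2 (log2 fold changes 0.28 and 0.32), which did not meet the criterion. The sum was higher in every Si-LIPG library, as ACSL4 and ACSL5 were, and its part in their values and in those of ACSBG1 was not tested. In bulk RNA, fewer cells of a type and less RNA per cell cannot be told apart. The 8 adipocyte markers summed to 238 to 321 in the NC group against 94.2 to 160 in the Si-LIPG group, mostly from PNPLA2. Neural and glial markers, of interest because ACSBG1 is known from brain, summed to at most 22.7 in the NC group against 24.8 in the Si-LIPG group, and RBFOX3 was at 0. The endothelial markers CDH5, KDR and TEK and the immune markers PTPRC, CD3E and ITGAM were at 0 as well, and these lists summed to at most 8.96 and 48.6. Myogenic markers summed to 364 to 470.1 in the NC group against 381 to 472 in the Si-LIPG group. In mean NC TMM CPM, MYH3 (207) and DES (178) lay above PDGFRA (111), PDGFRB (90.2), THY1 (79.0), DCN (118) and LUM (28.5). They lay below NT5E (441), ENG (684), VIM (2990), COL1A1 and COL1A2.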

How the data were processed

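The authors deposited counts, 1 file per library with the reads counted on each of 27271 genes, and FPKM values of the same genes. The submitters' processing notes name fastp, HISAT2, SAMtools and HTSeq. Versions, genome build and strand setting are not given in the sources used here. The 5 rows that name no gene (97.1% to 99.0% of reads) stayed out of library sizes except in the scaling to all reads.

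The tests were run with edgeR 4.0.16 (R 4.3.3; filterByExpr, TMM, quasi-likelihood test, 6574 genes). DESeq2 1.42.0, the tool of the study, and limma 3.58.1 on log2(FPKM + 1) and log2(FPKM + 0.1) were alternatives. Standard errors were the log2 fold change over the square root of the F statistic. The criterion was p below 0.05 before adjustment together with more than a 1.5-fold difference, with Benjamini-Hochberg adjusted p values beside it. Shares and single values used two-sided exact permutation tests over the 20 assignments of libraries. Intervals and the floor of 3 counts cover counting error only. The edgeR fit with TMM was tested on simulated data, and the alternative fits were not.

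The members and lists were chosen with earlier results of these data known. The rule named all members, LIPG, up to 4 genes per pathway list at the criterion with the smallest p, the 3 nearest profiles per tested member, and overlapping or adjoining genes. Some genes that the rule or the marker lists hold are not reported here. Marker genes and the list genes that missed the criterion were named after their values were seen. Gene names came from the files, and neighbours from RefSeq (ARS1.2). Replicate libraries differed by more than sampling noise (chi-square over degrees of freedom from 4.17 to 13.9).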

Additional observations from a re-analysis of the deposited data

How the results depend on the processing

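With 3 libraries per group and at most 2.88% of reads on genes, low counts limit ACSS1, ACSS3, ACSL1 and ACSL5 most. Genes at the criterion (1361) became 3032 scaled to all reads, 2044 without a filter and 134 with the on-gene share of reads as covariate, and ranged from 871 to 1692 when each library was left out. Genes with an adjusted p under 0.05 (428) became 123 with library sizes alone, 750 scaled to all reads and 714 with at least 10 counts in every library. They became 0 with the share as covariate (134 at an unadjusted p under 0.05) and 0 in limma with either pseudocount (1912 and 1671), and ranged from 0 to 648 when each library was left out, with 0 without NC 1, NC 2, Si-LIPG 2 or Si-LIPG 3. Of the higher and lower genes at the criterion, 515 and 846 with TMM became 1588 and 395 with library sizes alone and 3030 and 2 scaled to all reads. Members at the criterion (3) became 1 with at least 10 counts in every library, where 2 members were tested, and 0 with the share as covariate, with a range of 2 to 3 when each library was left out. Scaled to all reads, the 3 at the criterion were ACSL3, ACSL4 and ACSL5, all higher, and ACSBG1 was not among them. Members with an adjusted p under 0.05 (1) became 0 with DESeq2 size factors, library sizes alone, the share as covariate or limma, and 2 (ACSL4 and ACSL5) scaled to all reads, with a range of 0 to 1 when each library was left out. The log2 fold change turned for ACSBG1 (0.0561) and ACSS2 (0.51) scaled to all reads, and for ACSL1 (-2.98) and ACSS2 (0.77) with the share as covariate. The difference in share turned for ACSL1 (-3.66 percentage points) and ACSL3 (-5.75) among the ACSL genes alone, and for ACSS1 (-0.806) and ACSS2 (-26.2) without ACSBG1 in the sum, a base chosen after the data were seen. FPKM rescaled by TMM factors was 14.9 for ACSL4 and 2.08 for ACSS3 in the Si-LIPG group and 379 for ACSBG1 in the NC group. DESeq2 gave 1693 genes at the criterion (629 higher and 1064 lower in Si-LIPG) and 595 adjusted. The paper, which used DESeq2, reports 1064 genes as upregulated and ranks GPS1 and CCDC85B first among them. Here GPS1 and CCDC85B were lower in Si-LIPG with TMM (log2 fold change -2.39 and -2.29, edgeR). Their direction in the paper is thus opposite to that given here. Causes were not tested.

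A replicate block gave 925 genes with an adjusted p under 0.05 and 4 members at the criterion, adding ACSS2 (log2 fold change -0.97). With the block, the log2 fold change of ACSBG1 was -1.42 ± 0.16 (SE). Deviations of libraries with the same number correlated at 0.21, 0.0639 and 0.105. NC 1 and NC 3 correlated best with their own number, and NC 2 with Si-LIPG 3 (0.0890). So few correlations cannot show whether libraries of the same number were paired, and no label says that they were.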
